A study of Mus musculus with 2 samples.

Results

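The microvilli of the brush border are finger-like protrusions on the apical face of intestinal enterocytes, each built on a core of bundled actin filaments. Villin, plastin 1, espin and Eps8 bundle or cap these filaments, while ezrin and the motor myosin 1a tie the bundle to the membrane. The protocadherins Cdhr2 and Cdhr5 bind each other between neighbouring microvillus tips, and their tails are held inside the cell by the scaffold Ush1c (harmonin) and the motor myosin 7b. The 10 genes that encode these proteins were chosen by symbol: Vil1, Myo1a, Ezr, Eps8, Espn, Pls1, Ush1c, Myo7b, Cdhr2 and Cdhr5. All 10 were found among the 20722 gene symbols of the table, each represented by its transcript with the highest mean.

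Messenger RNA was sequenced from villi purified from the small intestine of C57BL/6 mice, with 1 library for each genotype. The dKO-labelled library has the genotype Rosa26-CreERT2 Cdkn2a-/- Ring1a-/- Ring1bf/f (dKO, double knockout of the ubiquitin ligases of Polycomb repressive complex 1), and the control library has Rosa26-CreERT2 Cdkn2a-/-. Both genotypes lack Cdkn2a and carry a Cre recombinase that tamoxifen activates. It is driven from the broadly active Rosa26 locus and is therefore not limited to the epithelium. Mice of both genotypes were taken at day 6 after 3 tamoxifen injections, and neither their age nor the number of animals behind a library is given in the sources used here. With 1 library per genotype there is no replicate spread, and no difference given here has a test over animals.

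The dKO-labelled library held 1058196 reads and the control library 775827. Ring1 (Ring1a) had 10 reads in each, and Rnf2 (Ring1b) had 82 in the dKO-labelled library and 59 in the control (ratio 1.25, 0.886 to 1.78), so neither targeted gene was lower beyond counting error. A count per transcript cannot tell a deleted exon from an intact one, and the dKO-labelled library is named by its label. Xist had 1 read in the dKO-labelled library and 80 in the control, and Ddx3y had 131 in the dKO-labelled library and 0 in the control, so sex and genotype label cannot be told apart. Summed reads of 9 enterocyte markers were 10771 in the dKO-labelled library and 8360 in the control (1.16-fold, 1.13 to 1.20). Apoa4, Apoa1 and Anpep were the most abundant, and 0 markers were without reads. By fold, 7 of the 9 lay above 1 and 2 below, Apoa4 (0.933-fold, 0.883 to 0.986) and Apoa1 (0.906-fold, 0.844 to 0.973). Anpep was at 1.38-fold (1.28 to 1.49). The 2 enterocyte markers past 2-fold, chosen here after their values were seen, were the brush border enzymes Sis (357 reads in dKO, 37 in control, 8.70-fold, 6.19 to 12.6) and Lct (847 in dKO, 184 in control, 4.15-fold, 3.53 to 4.89). Both are part of the sum, and the sum without them was not taken. Stromal and muscle markers had 374 reads in the dKO-labelled library and 63 in the control (5.35-fold, 4.09 to 7.10, 11 genes), led by Col3a1 (72 in dKO, 8 in control), Acta2 (72 in dKO, 3 in control) and Col1a2 (64 in dKO, 9 in control). The 6 goblet markers had 2598 reads in the dKO-labelled library and 3728 in the control (0.628-fold, 0.597 to 0.661). The 6 tuft markers had 191 in dKO and 384 in control (0.448-fold, 0.375 to 0.535), of which Trpm5 had 33 and 189. The 6 Paneth and crypt markers had 1695 in dKO and 931 in control (1.64-fold, 1.51 to 1.78). Intervals of the remaining lists included 1. Immune markers (6 genes) had 81 reads in dKO and 56 in control (1.30-fold, 0.916 to 1.87). Endothelial markers (5 genes) had 39 in dKO and 53 in control (0.663-fold, 0.427 to 1.02). Members of the enterocyte, goblet, immune and endothelial lists differed in direction. Among goblet markers Fcgbp had 1031 reads in dKO and 1872 in control but Spdef 73 in dKO and 28 in control. Among endothelial markers Tie1 had 5 in dKO and 48 in control but Lyve1 19 in dKO and 1 in control. After scaling for library size, all tuft markers with reads were lower in the dKO-labelled library and all Paneth and crypt markers higher, though not each beyond counting error. Dclk1 and Gfi1b (tuft), Dcn (stroma) and Ptprc (immune) had 0 reads in both libraries. RefSeq lists more than 1 transcript for each of them. How reads shared by transcripts were counted is not given, so a 0 is not taken as absence of the RNA. The part of these differences in the results below was not tested, and in such tissue fewer cells of a type and less RNA per cell cannot be told apart.

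Each gene is given by its reads, by its normalised read count (reads plus 1, divided by the size factor of the library) and by the fold, which is the ratio of reads divided by the ratio of the size factors, 1.11. Folds are dKO over control, and the bounds after them are 95% exact counting intervals, which cover counting error only. The log2 ratio was taken on normalised counts plus 1. Genes whose mean normalised count reached 20 are termed measured. Counts of higher and lower genes take those with a ratio of 2-fold or more, a limit of size and not a test. Of a single gene, higher or lower beyond counting error means that its interval excludes 1.

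Of the 10 microvillus genes 9 were measured, and 0 of them were at least 2-fold higher or lower in the dKO-labelled library. Among all 6001 measured genes, 26.2% were higher and 4.18% lower by this rule, 30.4% in either direction. Of the 59 genes with a mean of at least 1000, 3.39% were higher and 8.47% lower (11.9% in either direction), and 4 microvillus genes belong to that group. The median log2 ratio of the 9 genes was 0.50, beside 0.51 over all measured genes. Their ratios ran from -0.54 (Cdhr2) to 0.82 (Espn), with 7 above 0 and 2 below by the deposited size factors. The counting interval of the fold lay above 1 for 6 genes, below 1 for 2 (Myo7b and Cdhr2) and across 1 for Ush1c. The share of all measured genes whose interval excludes 1 was not counted, and intervals narrow as reads rise. These numbers are therefore no result about the microvillus genes as a set. Against the fold at the median of measured genes, 1.42, the interval lay above for Vil1 alone, below for Myo7b and Cdhr2, and across for the remaining 6.

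**Figure D1:**
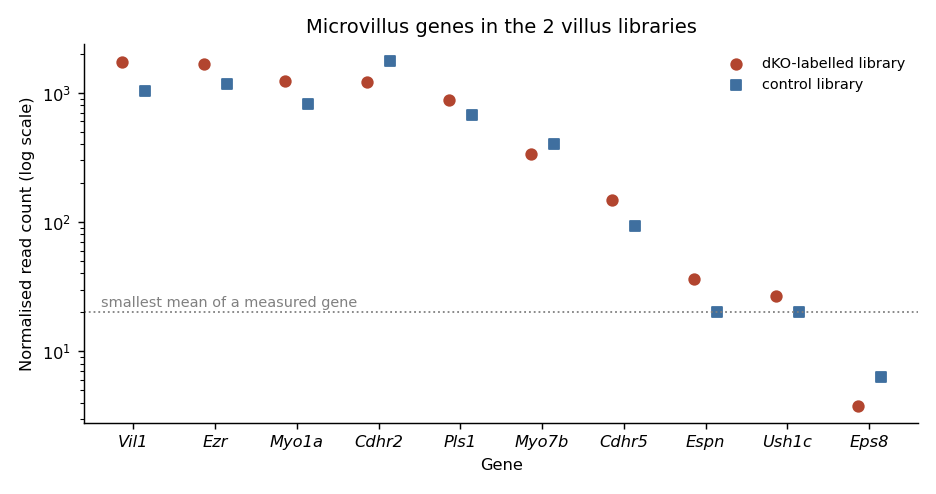
Normalised read counts (vertical axis, log scale) of the 10 microvillus genes in the dKO-labelled library (circles) and the control library (squares), ordered by the count in the dKO-labelled library. Cdhr2, Myo7b and Eps8 sit lower in the dKO-labelled library and the other 7 genes higher, of which Myo1a, Ezr, Pls1 and Ush1c turn lower with upper-quartile scaling. Eps8 lies under the dotted line at 20.

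Promoter sequences are shown for Vil1, the abundant gene with the highest ratio, and for the binding partners Cdhr2 and Cdhr5, whose ratios had opposite signs. They are the 250 bases before the gene start in RefSeq on GRCm38.p6, a later build than the mm9 of the submitters' processing notes: chr1:74409134-74409383 (plus strand) for Vil1, chr13:54701213-54701462 (plus strand) for Cdhr2 and chr7:141276787-141277036 (minus strand) for Cdhr5. Capitals mark matches to any of 5 motifs searched on both strands, each named for the factors known to bind such letters. The CDX motif, for the caudal homeobox factors of intestine, was TTTAT. The SP/KLF motif, for a widely expressed family of zinc finger factors, was GGGCGG. The GATA motif, for zinc finger factors of gut endoderm, was AGATAA. The HNF4 motif, for a nuclear receptor of enterocytes and liver, was CAAAGTCCA. The HNF1 motif, for a homeobox factor of the same tissues, is given by its name alone.
Vil1: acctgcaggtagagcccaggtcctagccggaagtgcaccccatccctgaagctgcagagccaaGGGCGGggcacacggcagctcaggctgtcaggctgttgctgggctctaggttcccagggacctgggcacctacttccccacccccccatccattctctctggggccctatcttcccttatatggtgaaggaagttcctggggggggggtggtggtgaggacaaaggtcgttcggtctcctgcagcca
Cdhr2: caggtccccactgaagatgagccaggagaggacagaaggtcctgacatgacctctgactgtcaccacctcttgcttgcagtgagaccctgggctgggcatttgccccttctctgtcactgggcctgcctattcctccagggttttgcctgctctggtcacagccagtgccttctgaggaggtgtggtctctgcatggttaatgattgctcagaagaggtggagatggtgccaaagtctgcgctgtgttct
Cdhr5: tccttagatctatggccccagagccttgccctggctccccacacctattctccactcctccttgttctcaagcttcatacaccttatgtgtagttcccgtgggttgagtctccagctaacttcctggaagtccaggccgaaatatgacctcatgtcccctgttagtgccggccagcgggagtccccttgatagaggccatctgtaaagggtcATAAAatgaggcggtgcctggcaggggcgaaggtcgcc
Vil1 held GGGCGG at position -187 from the start, Cdhr5 held TTTAT on the opposite strand at -38, and Cdhr2 held none of the 5. RefSeq gave 10 promoters for 8 of the microvillus genes. GGGCGG was in 5 of the 10, beside 32.7% of all 32851 promoters of that length, and TTTAT in 2, beside 37.3%. The other motifs were in 0 of the 10, and in 0.384% (HNF4 type), 0.0335% (HNF1 type) and 9.99% (GATA type) of all promoters. A match is a description of these letters and no evidence of binding.

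Among the bundlers, Vil1 (NM_009509, villin, which bundles, caps and severs actin filaments depending on calcium) had 1833 reads in the dKO-labelled library and 977 in the control. Its normalised counts were 1741 and 1030, a fold of 1.69 (1.56 to 1.83). Vil1 was higher beyond counting error, and it ranked 4 of the 59 genes with a mean of at least 1000 by log2 ratio. Pls1 (NM_001033210, plastin 1 or fimbrin, the bundler with tandem calponin-homology domains) had 924 reads in the dKO-labelled library and 639 in the control, with normalised counts of 878 and 674 and a fold of 1.30 (1.18 to 1.44). Espn (NM_019585, espin, a bundler also known from hair cell stereocilia) had 37 reads in the dKO-labelled library and 18 in the control, 1.85-fold (1.03 to 3.46). Its interval is wide, since the counts are low.

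Eps8, which caps barbed ends and bundles filaments at the microvillus tip, could not be compared. Its listed transcript (NM_001271595) had 3 reads in the dKO-labelled library and 5 in the control, and a second transcript (NM_001271589) had 1 in the dKO-labelled library and 0 in the control. Espn and Ush1c also have a pair of rows each, and the second row held 2 reads in the dKO-labelled library and 0 in the control for Espn, and 0 in both for Ush1c. The 3 microvillus genes with a pair of rows were the 3 with the fewest reads, and the 7 with a single row had at least 87 in each library. Over the whole table, 14.5% of 1171 symbols with 2 or more rows were measured, beside 29.8% of 19551 with 1 row. How reads shared by transcripts were counted is not given in the sources used here, so the levels of Eps8, Espn and Ush1c are uncertain.

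The linkers of membrane and actin lay above 1 with Vil1, at lower folds. Ezr (NM_009510, ezrin, which ties membrane proteins to the actin core when phosphorylated) had 1743 reads in the dKO-labelled library and 1113 in the control, with normalised counts of 1656 and 1173 and a fold of 1.41 (1.31 to 1.52). Myo1a (NM_001081219, the brush border myosin that forms lateral bridges from core to membrane) had 1302 reads in the dKO-labelled library and 774 in the control, with normalised counts of 1237 and 816 and a fold of 1.52 (1.39 to 1.66). Both genes were higher beyond counting error by the deposited size factors, at ranks 6 (Myo1a) and 7 (Ezr) of the 59 most abundant genes. Under edgeR's TMM scaling, which put the median of all measured genes at -0.03, the log2 ratios of Vil1, Myo1a, Ezr and Pls1 became 0.23, 0.07, -0.03 and -0.14, and with the upper quartile, which put that median at -0.15, they were 0.12, -0.04, -0.14 and -0.26.

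**Figure D2:**
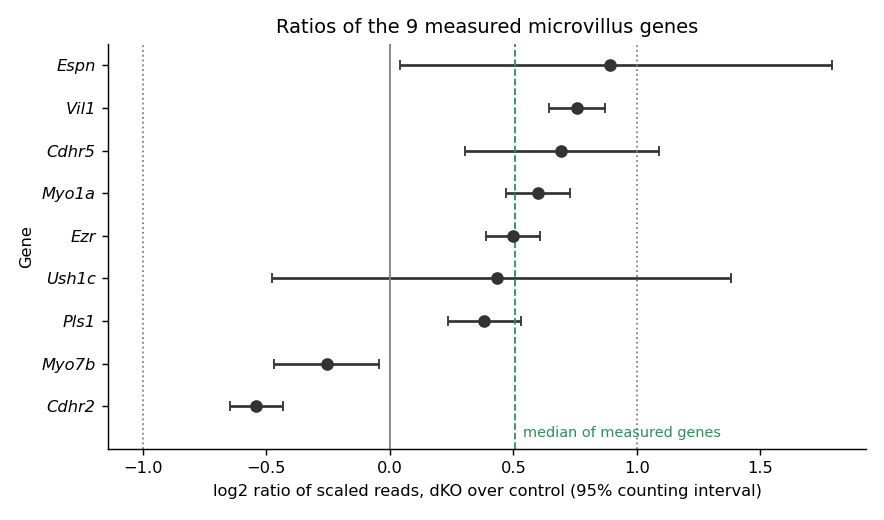
Log2 ratios of scaled reads, dKO over control (points), with 95% counting intervals (bars) for the 9 measured microvillus genes. The dashed line is the median of all measured genes (0.51), dotted lines mark 2-fold, and Myo7b and Cdhr2 lie left of 0 while the other 7 lie right of it, of which Myo1a, Ezr, Pls1 and Ush1c move left of 0 with upper-quartile scaling.

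The adhesion genes diverged from one another. Cdhr2 (NM_001033364, the larger protocadherin of the tip links) had 1267 reads in the dKO-labelled library and 1661 in the control. Its normalised counts were 1204 and 1751, a fold of 0.688 (0.639 to 0.740), the lowest of the 9. Cdhr5 (NM_001114322, its mucin-like partner) had 156 reads in the dKO-labelled library and 87 in the control, with normalised counts of 149 and 92.7 and a fold of 1.62 (1.24 to 2.13). Reads of Cdhr2 per read of Cdhr5 were 8.12 in the dKO-labelled library and 19.1 in the control. The fold of Cdhr5 over that of Cdhr2 was 2.35 (1.78 to 3.12), a value that no single scaling factor between libraries can change. An adjustment by level or length would change it. Set against genes of like level and length, a comparison given below, Cdhr5 lay at 0.22 and Cdhr2 at -0.50 (log2).

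Myo7b (NM_032394, the motor that carries the adhesion complex to the tips) had 354 reads in the dKO-labelled library and 381 in the control, with normalised counts of 337 and 402 and a fold of 0.838 (0.723 to 0.970). Ush1c (NM_023649, the PDZ scaffold that joins protocadherin tails to the motor) had 27 reads in the dKO-labelled library and 18 in the control, 1.35-fold (0.718 to 2.61), a difference not detectable at this depth. The log2 ratios of Cdhr2 and Myo7b were below 0, and those of Vil1, Espn and Cdhr5 above 0, under all 9 other scalings, pseudocounts and row treatments run. Of the scalings, only that by the mean of Actb and Actg1 moved ratios up, to -0.39 for Cdhr2 and -0.10 for Myo7b. The other scalings moved ratios down and could not turn the signs of Cdhr2 and Myo7b. The upper quartile put Cdhr5 at 0.04, Espn at 0.20 and Vil1 at 0.12, and TMM put Cdhr5 at 0.16, beside 0.68, 0.82 and 0.76 for Cdhr5, Espn and Vil1 with the deposited size factors. Subtracting the median of measured genes put Cdhr2 at -1.05 and Myo7b at -0.76 (log2), so that Cdhr2 alone of the 9 passed the 2-fold limit there, beside 10.4% of all measured genes lower and 11.8% higher on that scale (22.3% in either direction).

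Comparisons between microvillus genes within the same library pair do not depend on a single scaling factor between libraries. They would change with an adjustment by level or length. Of 36 pairs among the 9 measured genes, 17 had a ratio of folds whose interval excluded 1. Of these, 14 involved Cdhr2 or Myo7b, and the other 3 were Vil1 over Ezr (1.20, 1.07 to 1.34), Vil1 over Pls1 (1.30, 1.14 to 1.48) and Myo1a over Pls1 (1.16, 1.01 to 1.33). Cdhr2 differed in this way from each of the 8 other genes. The widest contrast between abundant genes was Vil1 over Cdhr2, 2.46 (2.21 to 2.74). Cdhr2 also had a lower fold than Myo7b, which was 1.22 times that of Cdhr2 (1.03 to 1.44). The intervals were not adjusted for the number of pairs, they cover counting error in these libraries alone, and pairs that share a gene are not independent. Pairs of other genes were not compared in this way, so the counts of pairs have no background beside them. Of all measured genes, 9.63% had a lower log2 ratio than Cdhr2.

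The make-up of the summed microvillus reads shifted with these differences. The 10 genes had 7646 reads in the dKO-labelled library and 5673 in the control, 1.21-fold (1.17 to 1.26), beside 1.23-fold over the reads of all symbols. Cdhr2 took 16.6% of the microvillus reads in the dKO-labelled library (15.7 to 17.4) and 29.3% in the control (28.1 to 30.5). Vil1 took 24.0% (23.0 to 24.9) in the dKO-labelled library and 17.2% (16.2 to 18.2) in the control. Shares in the dKO-labelled library and the control were 22.8% and 19.6% for Ezr, 17.0% and 13.6% for Myo1a, 12.1% and 11.3% for Pls1, 4.63% and 6.72% for Myo7b and 2.04% and 1.53% for Cdhr5. Espn, Ush1c and Eps8 each took under 1% in both. A share falls when another rises, so the shares are not separate measurements. Intervals of shares are exact binomial ones.

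**Figure D3:**
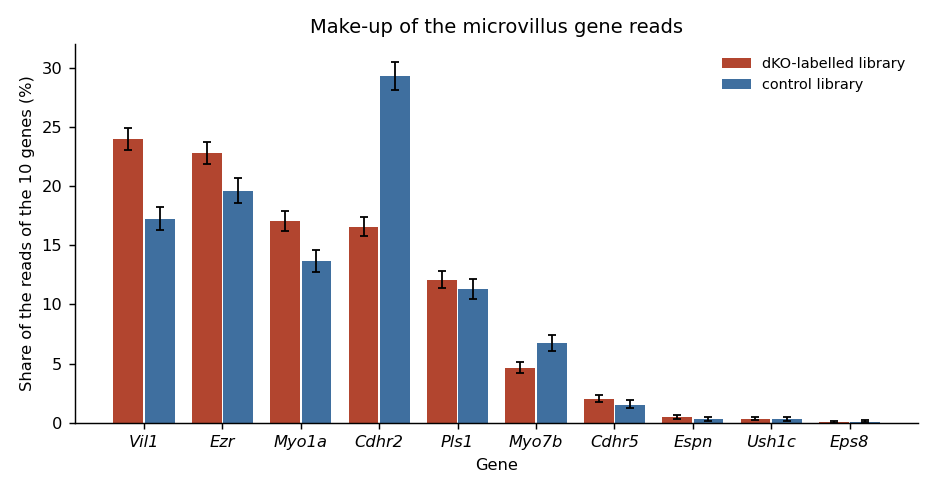
Share of the summed reads of the 10 microvillus genes taken by each gene (vertical axis, percent), in the dKO-labelled library (left bar of each pair) and the control library (right bar), with 95% exact binomial intervals. Cdhr2 falls to 16.6% in the dKO-labelled library, against 29.3% in the control, and Vil1 reaches 24.0% in the dKO-labelled library, against 17.2% in the control.

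Levels of different genes were compared as reads per kilobase of transcript, with lengths from GENCODE M21. In the dKO-labelled library the order was Vil1 (587 reads per kilobase), Ezr (551), Myo1a (379), Cdhr2 (307), Pls1 (249), Cdhr5 (59.4), Myo7b (53.5), Espn (32.4), Ush1c (13.2) and Eps8 (0.723). In the control library it was Cdhr2 (402), Ezr (352), Vil1 (313), Myo1a (225), Pls1 (173), Myo7b (57.5), Cdhr5 (33.1), Espn (15.8), Ush1c (8.79) and Eps8 (1.20). Cdhr2 was thus below Vil1, Ezr and Myo1a per kilobase in the dKO-labelled library and above all other members of the set in the control, and Cdhr5 and Myo7b changed places. Among 20226 genes with a length, Vil1 ranked 146 in the dKO-labelled library and 221 in the control, Ezr 160 and 180, Myo1a 284 and 360, Pls1 492 and 504, and Cdhr2 378 and 149.

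Ratios over the whole table moved with level and with transcript length. The median log2 ratio was 0.77 for genes with a mean of 20 to 50 and -0.05 for those with a mean of at least 1000. It was 0.71 in the shortest 20% of transcripts (up to 1538 nt) and 0.27 in the longest (over 4786 nt). Myo7b has the longest transcript of the 10 (6621 nt), and Cdhr2 (4129 nt) is longer than Vil1 (3124 nt), Ezr (3164 nt) and Myo1a (3439 nt). Against genes of like level (mean within 2-fold) and like length (within 1.5-fold), Vil1 lay 0.76 above their median, Myo1a 0.53, Ezr 0.51, Pls1 0.34 and Cdhr5 0.22, while Cdhr2 lay at -0.50, Myo7b at -0.30, Ush1c at -0.46 and Espn at -0.06. On this scale, chosen after the values were seen, the abundant genes of the core and its membrane link stayed above their comparison genes, and Cdhr2 and Myo7b stayed below theirs.

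**Figure D4:**
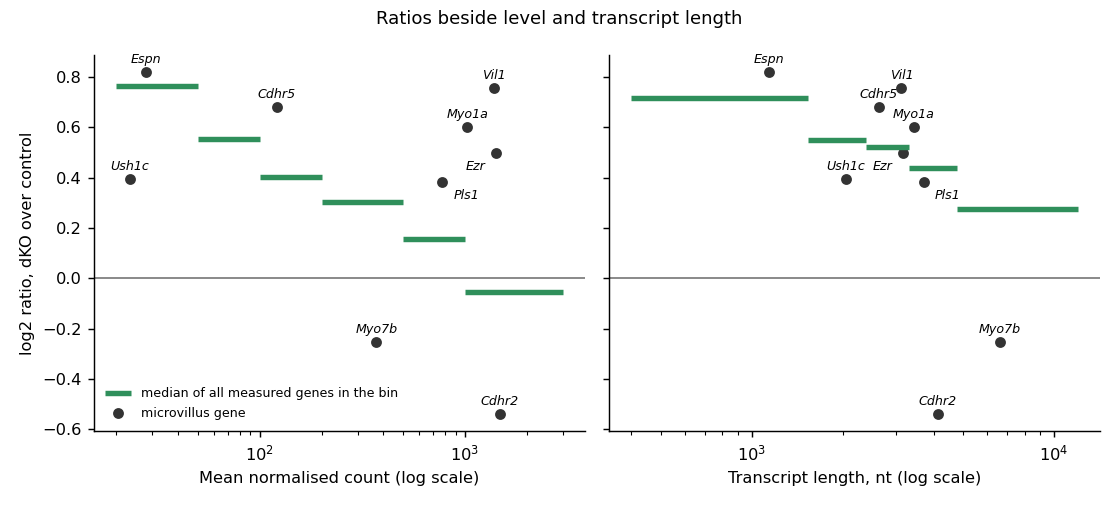
Log2 ratios, dKO over control (vertical axis), of the 9 measured microvillus genes (points) against mean normalised count (left) and transcript length (right), both on log scales. Bars are medians of all measured genes in each bin, with the outermost bins drawn shortened, and they fall with level to -0.05 while Vil1, Myo1a and Ezr stay between 0.50 and 0.76.

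Other genes of the microvillus and its surroundings were examined as 6 lists, of which 79 genes were in the table and 45 measured. Of these 5 were at least 2-fold higher and 3 lower in the dKO-labelled library, beside 26.2% and 4.18% of all measured genes, and their median log2 ratio was 0.25 (0.51 over all measured genes). With 0.51 subtracted from each ratio, 4 were higher, Tpm4 no longer among them (0.61), and 5 lower (Myo1e, Stk10, Myh9, Rab11fip1 and Muc4), beside 11.8% and 10.4% of all measured genes. The higher count was also 4 with total reads, the upper quartile or TMM. The lists were not matched to genes of like level. Medians of all measured genes were 0.40 at a mean of 100 to 200, 0.30 at 200 to 500 and 0.16 at 500 to 1000. In these bins 224 of 1173, 116 of 954 and 16 of 228 were higher, and 52, 38 and 9 lower. In the adhesion list 3 genes were measured, with 1 higher and a median of 0.92. Tmigd1, an immunoglobulin-family adhesion protein of the brush border, had 108 reads in the dKO-labelled library and 28 in the control (3.48-fold, 2.28 to 5.47). Calml4, a light chain of myosin 7b, had 46 in dKO and 21 in control (1.97-fold, 1.15 to 3.48), and Anks4b, the scaffold between Ush1c and myosin 7b, 603 in dKO and 506 in control (1.07-fold, 0.953 to 1.21). The ratios of the complex were thus spread from Cdhr2 at 0.688-fold to Calml4 at 1.97-fold. Calml4 had a mean normalised count of 33.9 and a transcript of 864 nt, beside 1477 and 4129 nt for Cdhr2. Ratios moved with level and length over the whole table, and the part of that trend in this spread was not tested.

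In the list of actin bundling, nucleation and capping, 14 genes were measured, with 1 higher, 0 lower and a median log2 ratio of 0.15. Baiap2l2, a membrane-binding protein of the BAR-domain family, had 183 reads in the dKO-labelled library and 22 in the control (7.50-fold, 4.80 to 12.3). Twf2, a twinfilin, had 55 in dKO and 28 in control (1.77-fold, 1.10 to 2.90), and Capza2, a subunit of capping protein, 432 in dKO and 250 in control (1.56-fold, 1.33 to 1.83). Eps8l3, related to Eps8, had 283 in dKO and 350 in control (0.729-fold, 0.621 to 0.855). The cytoplasmic actins, a scaling alternative, had 1772 reads in dKO and 1868 in control (Actb, 0.855-fold, 0.801 to 0.913) and 1981 in dKO and 1890 in control (Actg1, 0.945-fold, 0.887 to 1.01). With their mean log2 ratio set to 0, Vil1 stood at 0.91, Ezr at 0.65 and Cdhr2 at -0.39.

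Of 10 measured genes of membrane linkage and ezrin regulation, 1 was higher and 0 lower, with a median of 0.39. Msn, encoding moesin, the ezrin relative of leukocytes, endothelium and stroma, had 121 reads in the dKO-labelled library and 26 in the control (4.19-fold, 2.73 to 6.68). The stromal and muscle markers were 5.35-fold higher in the same library, and their part in the Msn ratio was not tested. Calm2, a gene for calmodulin, which serves as the light chain of myosin 1a, had 666 reads in dKO and 311 in control (1.93-fold, 1.68 to 2.22). Stk10, a kinase of ezrin, radixin and moesin, had 92 in dKO and 153 in control (0.542-fold, 0.414 to 0.707), and Myo1e, another class I myosin, 273 in dKO and 468 in control (0.526-fold, 0.451 to 0.612).

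In the terminal web, the filament mat in which the core bundles are rooted, 8 genes were measured, with 1 higher, 1 lower and a median of 0.25. Myh9, the heavy chain of non-muscle myosin IIA, had 277 reads in the dKO-labelled library and 665 in the control (0.375-fold, 0.325 to 0.433), and its transcript is long (7433 nt). Tpm4, a tropomyosin, had 251 in dKO and 103 in control (2.20-fold, 1.74 to 2.79), Actn1, an actin cross-linker, 97 in dKO and 48 in control (1.82-fold, 1.28 to 2.63), and Myl12a, a myosin regulatory light chain, 245 in dKO and 123 in control (1.80-fold, 1.44 to 2.25). Among 8 measured genes of apical delivery 1 was higher and 1 lower (median 0.21). Slc26a3, an apical chloride-bicarbonate exchanger, had 51 reads in the dKO-labelled library and 4 in the control (11.5-fold, 4.22 to 43.8), and Rab11fip1, an effector of the recycling GTPase Rab11, 12 in dKO and 55 in control (0.197-fold, 0.0959 to 0.372). Stxbp2, a partner of syntaxin 3 that is mutated in some human microvillus inclusion disease, had 416 in dKO and 227 in control (1.65-fold, 1.40 to 1.95), and Rab8a, a GTPase of apical transport, 351 in dKO and 204 in control (1.55-fold, 1.30 to 1.85). Of the membrane mucins 2 were measured: Muc13 had 2092 reads in dKO and 2298 in control (0.821-fold, 0.773 to 0.871) and Muc4, with a transcript of 11277 nt, 17 in dKO and 64 in control (0.239-fold, 0.131 to 0.414).

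**Figure D5:**
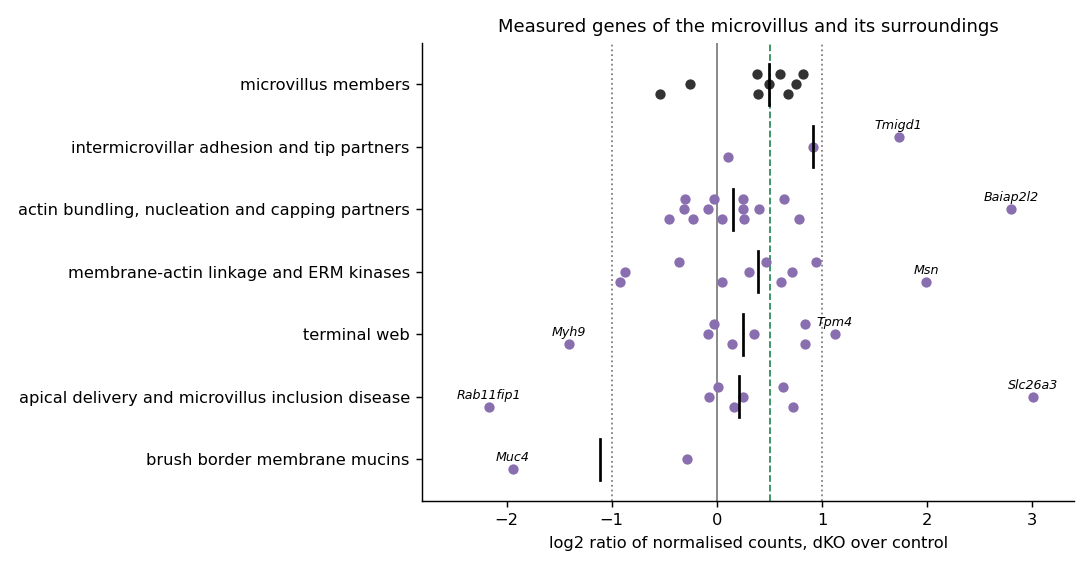
Log2 ratios of normalised counts, dKO over control (horizontal axis), of measured genes (points) in the microvillus set (top row) and in the 6 surrounding lists, with each list's median as a vertical tick. Dotted lines mark 2-fold and the dashed line the median of all measured genes (0.51). All points of the microvillus row lie within the dotted lines, and the genes named in the other rows lie outside them.

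In the authors' deposited table, the unadjusted DESeq p-values of the 10 listed transcripts ran from 0.559 (Vil1) to 0.846 (Myo7b). They rest on a spread that single libraries cannot supply, and none of them is used here as a test.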

How the data were processed

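Messenger RNA of villi was sequenced, 1 library for each genotype, from total RNA and an Illumina TruSeq v2 kit per the labels' protocols. TopHat, DESeq and build mm9 are named in the submitters' processing notes, without versions. The deposited signal columns are DESeq base means, normalised read counts per RefSeq transcript, per the file headers. The deposited fold (ratio) and log2 columns compare the KO and wt columns, and the deposited p-value is unadjusted. Dividing a signal value by the smallest in its column always gave a whole step (0.949 in dKO, 1.05 in control; 100% of values within 0.001 of a step) and none was 0. They were read as counts with 1 read added, an inference from the values, and reads were recovered as steps minus 1 for 22040 rows.

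Symbols were represented by their row with the highest mean. Of the identifiers, 98.5% matched RefSeq GRCm38.p6, used for names, and lengths came from GENCODE M21. For read counting, strand and duplicates the method is not given in the sources used here, and read totals per library bound the precision. The microvillus genes and lists were chosen with earlier results of these data known. Text names all 10, up to 4 measured genes per list with the largest absolute log2 ratio, up to 3 markers with the most reads per marker list, and Actb and Actg1 as a scaling alternative; Sis, Lct and Spdef were added after their values were seen. Intervals are Clopper-Pearson on the reads; ratios of folds use conditional odds ratios. The rules were run on simulated counts that held counting error only, with known size factors and no trend with level or length. That run cannot show how the rules behave under spread between animals or an offset in scaling. Python 3.11.15, numpy 2.4.6, pandas 2.3.3, scipy 1.17.1, matplotlib 3.10.9, R 4.3.3 and edgeR 4.0.16 (TMM) were used.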

Additional observations from a re-analysis of the deposited data

How the results depend on the processing

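No paired analysis was possible because each genotype has a single library, which also means that no replicate could be left out. Microvillus genes at least 2-fold higher numbered 0 in every planned setting. Those lower numbered 0, and 1 (Cdhr2) with TMM (log2 ratio -1.07), the upper quartile (-1.18) or the median of measured genes set to 0 (-1.05), which shift every ratio down. The median of all measured genes, 0.51, was -0.03 with TMM, -0.15 with the upper quartile, 0.20 with total reads or thinning, 0.32 above a mean of 100 and 0.10 unfiltered. An exact binomial test on the reads, added after seeing the data, compares the libraries alone. It called 5 of the 10 microvillus genes higher (Vil1, Myo1a, Ezr, Pls1, Cdhr5) and 1 lower (Cdhr2). Of all 20722 symbols it called 3476 higher and 729 lower, and of the 79 list genes 23 and 10. Symbols with any read were tested without the limit on the mean, and genes with more reads are called at smaller ratios. The share among genes of like read number was not counted, so these calls are no result about the microvillus genes.

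All measured genes higher and lower numbered 1574 and 251, against 972 and 436 with total reads, 528 and 818 with the upper quartile, 711 and 626 with the median set to 0, 657 and 665 with TMM, 877 and 398 after thinning the deeper library, 358 and 104 above a mean of 100, 3704 and 892 unfiltered, and 627 and 104 with intervals beyond 2-fold. Genes of the surrounding lists higher and lower numbered 5 and 3, with 1 and 1 above a mean of 100, 10 and 8 unfiltered, and 3 and 5 after thinning. Those lower were 7 with the upper quartile and 5 under each of total reads, TMM and the median at 0.

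Vil1, Espn, Myo7b, Cdhr2, Cdhr5 and the barely counted Eps8 kept the sign of their log2 ratio in all 9 settings run on each. Even so, Espn lay at -0.06 against genes of like level and length, a comparison added after seeing the data. Summing rows left genes with a single row unchanged. A pseudocount of 5 or taking off the added read barely moved the abundant genes, so these settings could hardly turn their signs. The sign differed in 1 for Myo1a (upper quartile), 3 each for Ezr and Pls1 (upper quartile, TMM, median set to 0), and 4 for Ush1c (these and thinning). Without Vil1 in the sum, Cdhr2 took 21.8% of the reads in the dKO-labelled library and 35.4% in the control. With the longest transcript as length, 8 of 10 genes kept their place per kilobase in each library, and Espn and Ush1c changed places. Depth limits Eps8, Espn and Ush1c most.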
